A study of Danio rerio with 6 samples.

Results

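Genes of the cell cycle, the centrosome and DNA replication were followed in zebrafish embryos in which the translation of mondoa, a glucose-sensing transcription factor gene, was blocked. The members were 53 of the 32054 genes of the deposited count table. They were all the genes whose symbol, in the rows of the study's gene tables read here, began with a name such as kif, cdc, cdk, cenp, plk, mcm, nek, orc, cep, rad, anapc, tuba, tubb, tubg or ccna to ccnh. The gene cdkn1a was left out by the same rule, and no symbol beginning with haus or smc was found in those rows. The name decided membership, so that some members act outside the cell cycle.

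Embryos were injected into the yolk at the 1 cell stage. The 3 control samples received mondoa-mis, a morpholino with mismatches to its target, and the 3 morphant samples received mondoa-mo, the morpholino that blocks translation of mondoa. All 6 were harvested as pools of whole embryos at 4 hpf, matched in age, with the controls at sphere stage. Wild-type fish of the study descended from the AB or the golden strain, and the labels do not say which was used here. A morpholino acts on translation and leaves the gene intact, so that the level of mondoa mRNA is no check of the knockdown. The embryos of both groups carry a morpholino, and no uninjected sample was analysed here.

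Early zebrafish embryos divide rapidly and in synchrony on maternal mRNAs and proteins, and the cycles lengthen around the time when the embryo's own genome becomes active. In each cycle the origin recognition complex and cdc6 load the MCM helicase on DNA, cyclins activate their kinases, and the duplicated centrosomes organise the spindle. The anaphase-promoting complex (APC/C), a ubiquitin ligase, then marks cyclins and the proteins that hold sister chromatids together for destruction.

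The total count per library was between 20685326 and 32100726. All 11 markers of the early blastula and its enveloping layer were detected, with at least 84 counts in each library. The 10 markers of differentiated tissues had at most 5 counts in any library, and their group means were at most 0.123 CPM. Summed over the early markers, the level was between 2798 and 2810.0 CPM in the control libraries and between 2884 and 3166 CPM in the morphant libraries. Group means of these markers ran from 5.18 to 1198 CPM, so that the sum follows the most abundant and can hide changes of single markers. CPM relates the count to a library size scaled by TMM, a normalization that trims the genes with the most extreme values. The morphant libraries differed more from each other than the control libraries did, as their biological coefficients of variation, 0.111 and 0.0193, show.

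The study's tables were available in shortened form, and how they were shortened decides what the members can show. One table was cut after 1999 rows sorted by the adjusted p-value of the same contrast of morphants and controls, and 34 members came from it. The 2 others were sorted by gene identifier, and 27 members came from them, 8 of which were in the first table as well. The 34 members were therefore chosen by the values described here, and these are given for them as a description. Where such a member came from no other rows, no adjusted p is given below, and the choice favours groups that stand apart. The 27 would have been members whatever they did in the morphants.

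Of the 53 members, 52 passed the filter on low counts, and tuba1a, an alpha-tubulin gene with 1 to 5 counts in each library, did not. Between mondoa-mo and mondoa-mis, 15 members were higher and 20 lower by the quasi-likelihood test of edgeR, at a Benjamini-Hochberg adjusted p under 0.05 over the 15511 genes tested. All 34 members of the p-sorted rows were among these, a count that the choice of rows fixes. Of the 26 tested members of the identifier-sorted rows, 4 were higher and 5 were lower, which is 34.6%. Over all genes tested, 32.3% passed, 16.9% higher and 15.4% lower, and over all genes of the identifier-sorted rows 35.8% passed, 21.1% higher and 14.7% lower. Groups of libraries did not overlap in CPM for 13 of the 26, and for 47.8% of all genes tested. Without mondoa-mis replicate 2, 3119 genes passed in place of 5017, and 3173 without mondoa-mis replicate 3 and 3275 without mondoa-mis replicate 1. Of the 26 members, 9 still passed without mondoa-mis replicate 1, and 8 without mondoa-mis replicate 2 or mondoa-mis replicate 3. These fits tested 15801, 15784 and 15815 genes, in that order. With all libraries, the share of members of the identifier-sorted rows that changed was thus close to that of genes at large. When a control library was left out, fewer of all genes passed while the count of these members hardly moved. Of the 9 members that passed with all libraries, 8 stood in the p-sorted rows as well. The share over all genes of the identifier-sorted rows is not given for these fits, so that no excess of the members is read from them. The whole embryo was sampled, so that fewer cells with a transcript and less of it in each cell cannot be told apart.

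Of the 52 members tested, 2 were lower by at least 2-fold, plk4 and mcm6, and 1 was higher, mcm9. Each stood in the p-sorted rows, which were chosen by this contrast, and plk4 in the identifier-sorted rows as well. Of all genes tested, 2.35% were lower and 1.57% higher by that measure. At the end of the p-sorted rows, ccnd3 stood in row 1951 with a log2 fold change of 0.73, and cdc42bpab in row 1846 with -0.31. The members outside these rows with the lowest adjusted p were orc3 with -0.25 and cep57l1 with 0.12, and many genes that are no members lie between. The 17 members that did not pass had log2 fold changes between -0.33 and 0.16.

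**Figure D1:**
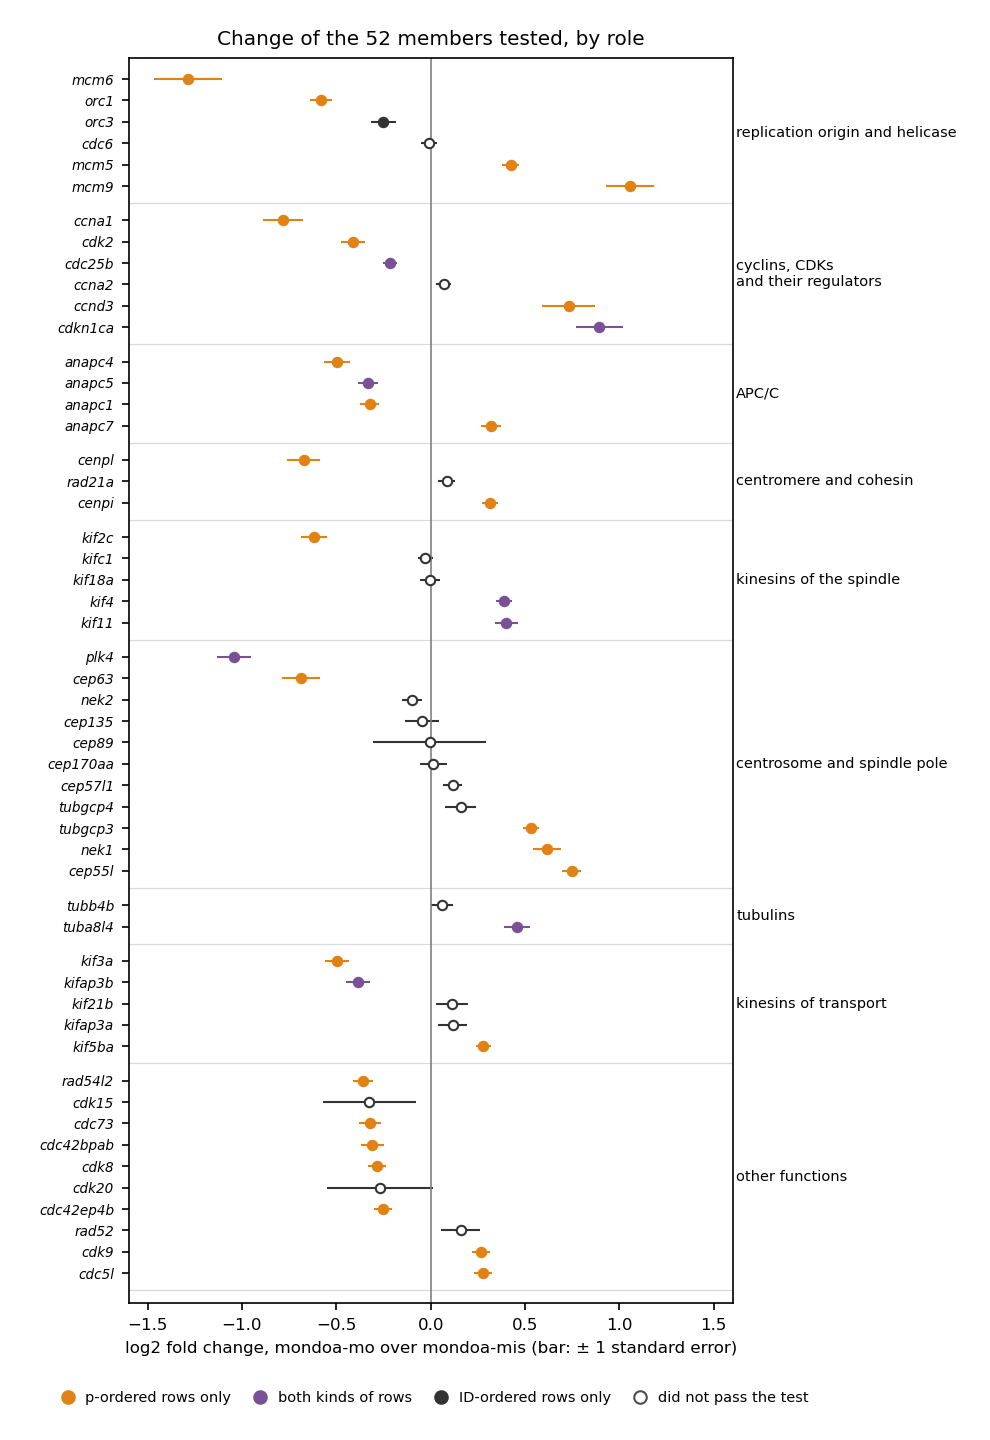
Log2 fold change of mondoa-mo over mondoa-mis for the 52 members tested (horizontal axis, with 1 standard error on each side), grouped by role. Colour gives whether a member came from the p-sorted rows only, from the identifier-sorted rows only or from both, and open points did not pass the test. Of the 9 roles, 8 hold both higher and lower members among those that passed, and the tubulins do not.

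Of the members that license replication origins, orc1 and orc3 were lower and cdc6 did not pass. The gene orc1 (ENSDARG00000039217), which encodes the largest subunit of the origin recognition complex, had 299.1, 299.1 and 299.7 CPM in the control libraries and 205, 213 and 181 CPM in the morphant libraries. The groups did not overlap, the control libraries were nearly identical, and the log2 fold change was -0.58 (standard error 0.0585). This gene came from the p-sorted rows only, a choice that favours groups that stand apart. For orc3, another subunit of the complex, the libraries had 117, 124 and 119 CPM in controls and 105, 107 and 90.5 CPM in morphants. It fell by 0.25 on the log2 scale (standard error 0.0662, adjusted p = 0.016, edgeR), with each morphant library below each control library. This call was lost without mondoa-mis replicate 2 (adjusted p = 0.081) or mondoa-mis replicate 3 (adjusted p = 0.054). The level of cdc6, the loader of the helicase, was 979 ± 10.3 CPM in controls and 971 ± 38.3 CPM in morphants (SD, n = 3 each), a difference that did not pass (adjusted p = 0.87, edgeR).

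Among the MCM genes of the replication ring, mcm5 was higher, and mcm6, the less abundant of 2 genes of that name, was lower. Both came from the p-sorted rows only and so were chosen by this contrast. The gene mcm5 had 162, 166 and 167 CPM in controls and 213, 223 and 228 CPM in morphants, and all 3 morphant libraries were higher, with a log2 fold change of 0.42 (standard error 0.0448). The gene mcm6 (ENSDARG00000057683) had 10.1, 10.5 and 9.51 CPM in controls and 3.39, 3.41 and 5.59 CPM in morphants. All morphant libraries were below the controls, mondoa-mo replicate 3 the least so, and the log2 fold change of -1.29 (standard error 0.179) was the lowest of all members. A second gene that the gene name table calls MCM6 (ENSDARG00000033231) was far more abundant, with 353 ± 6.07 CPM in controls and 321 ± 28.0 CPM in morphants, and its log2 fold change of -0.14 did not pass (adjusted p = 0.099, edgeR). Per kilobase of gene length, the level of mcm6 was 0.0228 ± 0.00121 of that of MCM6 in controls and 0.0105 ± 0.00400 in morphants (SD, n = 3 each). If the genes share stretches of sequence, pairs matching both were not counted as unique, so that the level of each is uncertain. The highest member was mcm9, whose protein acts with MCM8 in the repair of DNA by recombination and is no part of the replication ring. It had 18.9, 19.6 and 20.0 CPM in controls and 46.5, 43.4 and 31.6 CPM in morphants, a log2 fold change of 1.06 (standard error 0.128), and mondoa-mo replicate 3 was again the library closest to the controls.

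Per kilobase of gene length, the 2 cyclin A genes, partners of cdk2 and cdk1, were at nearly equal levels in the controls and not in the morphants. The near equality depends on the authors' gene lengths, and in CPM ccna1 was below ccna2 in each library. In mondoa-mis, ccna1 (ENSDARG00000043236) had 1311, 1336 and 1321 CPM, and in morphants it had 846, 853 and 606 CPM. All morphant libraries were lower, replicate 3 the most, and the log2 fold change was -0.78 (standard error 0.107). In mondoa-mis ccna2 had 1670.4, 1667 and 1687 CPM, and in morphants 1774, 1686 and 1807 CPM. Here the groups overlapped and the log2 fold change of 0.07 did not pass (adjusted p = 0.23, edgeR). Per kilobase, both were the most abundant members in controls, at 306 CPM per kilobase for ccna2 and 302 for ccna1. The level of ccna1 per kilobase was 0.988 ± 0.0129 times that of ccna2 among controls and 0.550 ± 0.114 times among morphants, with the lowest ratio, 0.419, in mondoa-mo replicate 3. This comparison within a library was chosen after the values had been seen, and ccna1 came from the p-sorted rows only. Cyclin A1 is known in Xenopus as the cyclin A of the early embryo, and cyclin A2 as the form of later cells.

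Other regulators of the cyclin-dependent kinases went both ways, and of these cdk2 and ccnd3 came from the p-sorted rows only. The level of cdk2 was 133 ± 7.38 CPM in controls and 100.5 ± 7.55 CPM in morphants (SD, n = 3 each), a log2 fold change of -0.41. The gene cdc25b, whose phosphatase activates the kinases, had 677, 690.1 and 679 CPM in controls and 577, 604 and 581 CPM in morphants. It fell by 0.22 on the log2 scale (standard error 0.0395, adjusted p = 0.0023, edgeR), the smallest change among members that passed, and the groups did not overlap. In contrast, cdkn1ca (ENSDARG00000010878), which encodes a kinase inhibitor of the p57 type, had 16.6, 16.7 and 16.9 CPM in controls and 27.6, 27.8 and 38.1 CPM in morphants. It rose by a log2 fold change of 0.89 (standard error 0.123, adjusted p = 0.00042, edgeR), and mondoa-mo replicate 3 stood above the other morphant libraries. The cyclin gene ccnd3, which acts in G1 in cells with gap phases, had 5.56, 6.17 and 5.56 CPM in controls and 11.3, 9.17 and 8.09 CPM in morphants. The groups did not overlap, and the log2 fold change was 0.73 with a standard error of 0.140, larger than for the abundant members.

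Of the 4 APC/C subunits among the members, 3 were lower and 1 was higher, and since all 4 came from the p-sorted rows, that all passed was fixed by the choice of rows. Of all 16 APC/C genes tested, these members included, 37.5% passed, against 32.3% of all genes tested. Of the 12 others, 16.7% passed, 1 higher and 1 lower. Leaving out members chosen by this contrast takes changed genes away, so that neither share is read as a result. The lowest was anapc4, with 89.5, 87.5 and 90.4 CPM in controls and 69.5, 61.5 and 58.1 CPM in morphants, a log2 fold change of -0.50 (standard error 0.0681). The gene anapc5 had 70.6, 70.2 and 72.9 CPM in controls and 54.7, 56.7 and 58.5 CPM in morphants. It fell by 0.33 on the log2 scale (standard error 0.0538, adjusted p = 0.0011, edgeR). With anapc1, whose log2 fold change was -0.32, these genes encode subunits of the platform of the complex. The gene anapc7, for a subunit of its arm, went from 45.6 ± 0.467 CPM in controls to 56.9 ± 0.984 CPM in morphants (SD, n = 3 each), a log2 fold change of 0.32. Per kilobase, the level of anapc7 was 1.28 ± 0.0241 times that of anapc5 in controls and 2.01 ± 0.0731 times in morphants. Both genes stood in the p-sorted rows with opposite directions, so that this shift restates their changes and is no separate result.

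The 2 members from the inner kinetochore, the protein layer that sits on the centromere, moved in opposite directions. Both came from the p-sorted rows only, so that their passing was fixed by the choice of rows. The gene cenpl had 38.6, 40.4 and 38.4 CPM in controls and 22.2, 27.9 and 23.7 CPM in morphants, with no overlap and a log2 fold change of -0.67 (standard error 0.0884). The gene cenpi was at 166 ± 1.54 CPM in controls and 207 ± 2.20 CPM in morphants (SD, n = 3 each), a log2 fold change of 0.31. The cohesin subunit gene rad21a, with 825 ± 7.23 and 875 ± 45.9 CPM, did not pass (adjusted p = 0.18, edgeR), although it did without mondoa-mo replicate 2 (adjusted p = 0.021).

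Among the motor proteins of the spindle, kif4 and kif11 rose. The gene kif11, whose kinesin pushes the spindle poles apart, had 116, 118 and 115 CPM in controls and 140.5, 163 and 158 CPM in morphants, a log2 fold change of 0.40 (standard error 0.0589, adjusted p = 0.00062, edgeR). The chromosome-bound kinesin gene kif4 had 213, 216 and 208 CPM in controls and 279.7, 287 and 268 CPM in morphants. It rose by 0.39 on the log2 scale (standard error 0.0442, adjusted p = 0.00013, edgeR), and for both genes each morphant library was above each control library. By contrast kif2c, whose kinesin takes microtubules apart at their ends, had 69.4, 70.7 and 71.8 CPM in controls and 41.5, 48.5 and 48.1 CPM in morphants. All morphant libraries were lower, with a log2 fold change of -0.62 (standard error 0.0689). This gene came from the p-sorted rows only. The genes kifc1 (404 ± 3.13 against 396 ± 5.65 CPM) and kif18a (237 ± 0.617 against 236 ± 16.4 CPM) did not pass, with adjusted p-values of 0.61 and 0.96 (edgeR).

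In the centrosome, the kinase gene that starts centriole duplication had the lowest adjusted p of the members in identifier-sorted rows. The gene plk4 (ENSDARG00000004576) had 28.9, 31.7 and 31.8 CPM in controls and 14.8, 16.4 and 13.7 CPM in morphants. The highest morphant library was far below the lowest control library, and plk4 fell by 1.04 on the log2 scale (standard error 0.0883, adjusted p = 2.1e-05, edgeR). Leaving out each library in turn gave log2 fold changes between -1.12 and -0.99. The gene cep63, whose protein helps bring Plk4 to the centriole, had 40.4, 36.1 and 36.9 CPM in controls and 22.5, 27.2 and 21.0 CPM in morphants. It was lower in all morphant libraries, with a log2 fold change of -0.69 (standard error 0.0984), and it came from the p-sorted rows only. The centriole gene cep135 (48.4 ± 2.16 against 46.7 ± 6.34 CPM) and the centrosome kinase gene nek2 (139 ± 0.959 against 130.1 ± 7.91 CPM) did not pass (adjusted p = 0.73 and 0.18, edgeR).

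Other centrosomal members were higher. The gene tubgcp3, for a core subunit of the gamma-tubulin ring from which microtubules grow, had 151.6, 151.6 and 152.2 CPM in controls and 221, 222 and 215 CPM in morphants. The libraries of each group were close together, and the log2 fold change was 0.53 (standard error 0.0415). The gene tubgcp4, for another subunit of the ring, had 13.5 ± 0.0439 CPM in controls and 15.1 ± 0.495 CPM in morphants (SD, n = 3 each) and did not pass (adjusted p = 0.16, edgeR). The gene cep55l, related to CEP55 of the midbody at which daughter cells part, had 83.7, 87.6 and 90.7 CPM in controls and 151, 141 and 148 CPM in morphants, a log2 fold change of 0.75 (standard error 0.0515). The kinase gene nek1 had 71.3, 64.5 and 65.5 CPM in controls and 114, 99.5 and 94.8 CPM in morphants, a log2 fold change of 0.62 (standard error 0.0747). In both the groups stood apart. Like tubgcp3, both came from the p-sorted rows only and so were chosen by this contrast. The remaining centrosomal members, cep57l1, cep89 and cep170aa, had log2 fold changes between -0.0040 and 0.12 and did not pass.

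**Figure D2:**
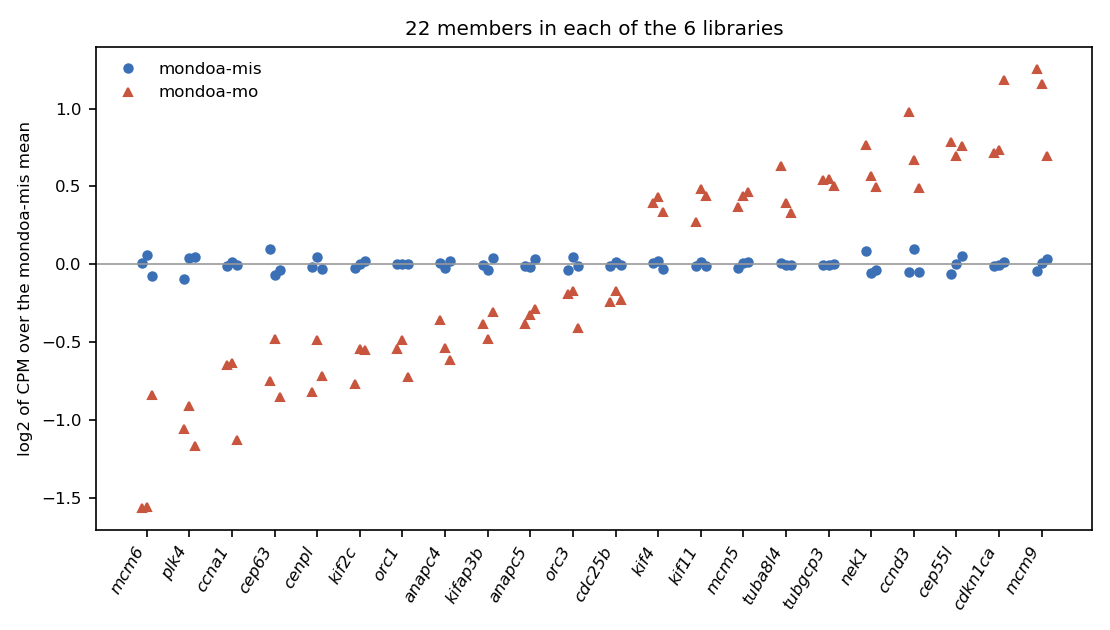
Level of 22 members in each of the 3 mondoa-mis libraries (circles) and the 3 mondoa-mo libraries (triangles), as the log2 of CPM over the mean of the mondoa-mis libraries, with replicates 1 to 3 from left to right. All 22 had passed the test, so that their choice favours groups that stand apart, and no triangle lies within the range of the circles of its gene. Of all genes tested, 47.8% had groups that did not overlap. The triangles of mcm6, mcm9 and ccna1 are spread most widely, with SDs of log2 CPM of 0.414, 0.297 and 0.282.

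The tubulins and the transport motors were followed as well. The alpha-tubulin gene tuba8l4 had 236, 234 and 234 CPM in controls and 363, 308 and 295 CPM in morphants. It rose by a log2 fold change of 0.46 (standard error 0.0695, adjusted p = 0.00078, edgeR), with mondoa-mo replicate 1 highest. The beta-tubulin gene tubb4b (77.8 ± 1.51 against 81.1 ± 5.54 CPM) did not pass (adjusted p = 0.47, edgeR). Tubulin genes are similar in sequence, so that pairs matching several of them were not counted and their levels are uncertain. The kinesin-2 motor that carries cargo in cilia was lower in 2 of its genes. The gene kif3a went from 61.3 ± 1.67 to 43.5 ± 2.87 CPM, a log2 fold change of -0.49. Its adaptor gene kifap3b had 54.9, 53.7 and 56.6 CPM in controls and 42.3, 39.6 and 44.6 CPM in morphants and fell by 0.38 on the log2 scale (standard error 0.0636, adjusted p = 0.0013, edgeR). Its paralogue kifap3a, at 21.2 ± 0.423 and 23.0 ± 1.34 CPM, did not pass (adjusted p = 0.27, edgeR). The kinesin-1 gene kif5ba was higher, with 248 ± 3.01 CPM in controls and 301 ± 4.45 CPM in morphants, and kif21b did not pass (adjusted p = 0.35, edgeR). Of the transport motors, kif3a and kif5ba came from the p-sorted rows only.

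**Figure D3:**
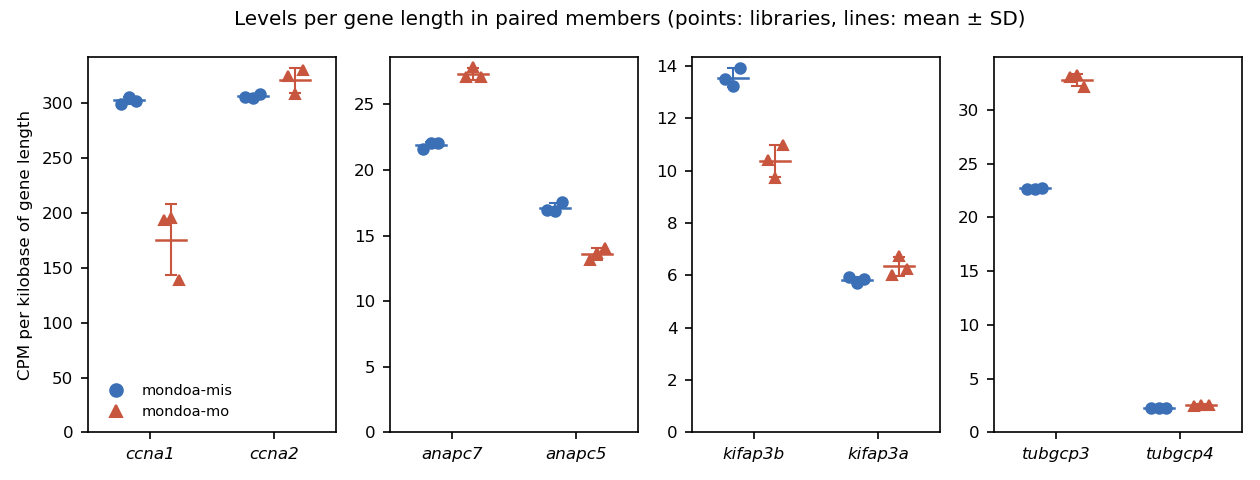
CPM per kilobase of gene length (vertical axes from 0) in each mondoa-mis library (circles) and mondoa-mo library (triangles) for 4 pairs of related members, with the mean and SD of each group. The levels of ccna1 and ccna2 are nearly equal in mondoa-mis and apart in mondoa-mo. The 2 groups of libraries do not overlap for kifap3b, kifap3a, tubgcp3 or tubgcp4, but kifap3a and tubgcp4 did not pass the test.

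The last 10 members share the name but have other functions or are less well known. In the control of transcription, cdk8 of the Mediator complex had a log2 fold change of -0.28, cdc73 of the Paf1 complex -0.32, and cdk9, the kinase that releases paused RNA polymerase, 0.27. The splicing factor gene cdc5l was higher by 0.28. The genes cdc42bpab and cdc42ep4b, for effectors of the small GTPase Cdc42, had log2 fold changes of -0.31 and -0.25, and the helicase-like gene rad54l2 had -0.36. These 7 all came from the p-sorted rows. The repair gene rad52 and the kinase genes cdk15 and cdk20, the latter 2 with at most 34 counts in a library, did not pass (adjusted p from 0.27 to 0.50, edgeR).

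Because the rows read name only part of each complex, the rest was looked up through a gene name table. There, 314 of the 32054 genes had a name of the same form, the 53 members included, and 270 of them were tested. Of these, 37 were higher and 51 lower (adjusted p under 0.05, edgeR), together 32.6%, against 32.3% of all genes tested. Lower genes made up 18.9% of them and higher genes 13.7%, against 15.4% and 16.9% of all genes tested. Their median log2 fold change was 0.0038, and that of all genes tested 0.0027. Without mondoa-mis replicate 2, 56 of 271 passed, and 56 of 275 without mondoa-mis replicate 3. Over all genes, 3119 of 15784 and 3173 of 15815 passed in these fits. Besides the members, those that changed at least 2-fold were HAUS1, kif26bb and cdc42l2, which were lower, and smc1b, which was higher. Except for HAUS1, each of these had a mean below 1 CPM in both groups and lost the call when single libraries were left out. For kif26bb this held for each library but mondoa-mo replicate 3 (adjusted p up to 0.179, edgeR), for cdc42l2 for mondoa-mis replicates 2 and 3 and mondoa-mo replicates 1 and 2 (up to 0.136), and for smc1b for mondoa-mis replicates 1 and 2 and mondoa-mo replicate 3 (up to 0.112). The gene HAUS1, for a subunit of the augmin complex that multiplies spindle microtubules, was at 2.35 ± 0.217 CPM in controls and 0.985 ± 0.258 CPM in morphants (SD, n = 3 each), a log2 fold change of -1.27 (adjusted p = 0.0021, edgeR).

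Lists of genes for 11 complexes and pathways were written with the members and earlier results of these data known. They held 204 tested genes, of which 39 were higher and 50 lower (43.6%). Without the members they held 173, with 30 higher and 37 lower, or 38.7% against 32.3% of all genes. Of the 89 genes that changed, 38 lost the call when some library was left out, 34 of them without mondoa-mis replicate 2. Among the genes named here, those losing it without at least 1 library included orc2, orc3, ORC5, MCM3, MCM4, E2F1, rb1, BUB3, CENPF, CDC26 and CDC20. Their adjusted p-values were then between 0.054 and 0.159 (edgeR). Over all genes tested, 16.9% were higher and 15.4% lower, and the counts of each list are given beside these shares as a description. Members chosen by this contrast raise a count, and leaving them out takes changed genes away. Counts with and without the members are therefore given, and neither is read as an excess or a lack. Without a control library fewer of all genes passed too, such as 3119 of 15784 without mondoa-mis replicate 2. Of the 33 replisome genes, 6 were higher and 5 lower, and without mondoa-mis replicate 2 these were 3 and 4. The gene pola1, for the catalytic subunit of DNA polymerase alpha, had the largest rise, with 146 ± 3.74 CPM in controls and 213 ± 15.3 CPM in morphants (SD, n = 3 each). It rose by 0.54 on the log2 scale (standard error 0.0567, adjusted p = 7.7e-05, edgeR). In the same list ticrr, needed to fire origins, fell by 0.49 on the log2 scale, and prim2, a primase subunit gene, fell by 0.45. Of the 9 genes of origin recognition and licensing, 2 were higher and 3 lower, and 1 and 1 without mondoa-mis replicate 2. Outside the members, 2 of 6 were higher and 1 lower (50.0%). Here orc2 (0.45) and the licensing inhibitor gene GMNN (0.19) rose, while ORC5 fell by 0.33, beside orc1 and orc3. Among the 7 genes of the MCM helicase, MCM4 rose by 0.14 and MCM3 fell by 0.56, beside mcm5 and mcm6, and without mondoa-mis replicate 1 or mondoa-mis replicate 3 2 genes passed in place of 4. Outside the members, 1 of 5 was higher and 1 lower (40.0%).

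The list of E2F factors and of the DREAM complex, which switch cell cycle genes on and off, held no member. It was, like the other lists, written with earlier results of these data known, so that its counts are a description. Of its 17 tested genes 1 was higher and 8 were lower, 52.9% in all against 32.3% of all genes tested, with a median log2 fold change of -0.18 against 0.0027. This count fell without single control libraries, and so did that of all genes. Without mondoa-mis replicate 1 4 genes passed, each lower (23.5%), while 3275 of all 15801 genes tested passed. Without mondoa-mis replicate 2 or mondoa-mis replicate 3 5 passed, each lower (29.4%). Over all genes, 3119 of 15784 and 3173 of 15815 passed in these fits, in that order. The gene e2f7, for an E2F that represses transcription, was the lowest gene of all lists. It had 4.69 ± 0.456 CPM in controls and 1.39 ± 0.428 CPM in morphants (SD, n = 3 each), a log2 fold change of -1.77 (standard error 0.210, adjusted p = 0.00017, edgeR). The pocket protein gene rbl1 fell by 0.81 and E2F1 by 0.69, the latter named after its value had been seen. The gene rb1, for the retinoblastoma protein, was the 1 that rose, by a log2 fold change of 0.14.

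Among the cyclins and their regulators, 4 of 27 genes were higher and 7 lower, 40.7% against 32.3% of all genes tested. These include members chosen by this contrast. Outside the members, with those changed genes taken away, 2 of 21 were higher and 4 lower (28.6%). The lowest was ccnf, for a cyclin that serves a ubiquitin ligase, at 6.93 ± 0.568 CPM in controls and 3.27 ± 0.412 CPM in morphants (SD, n = 3 each), a log2 fold change of -1.08 (adjusted p = 0.00028, edgeR). In the spindle checkpoint and outer kinetochore list, which held no member, 5 of 17 genes were higher and 4 lower (52.9%, against 32.3% of all genes tested). Without mondoa-mis replicate 2 or mondoa-mis replicate 3 2 genes passed, both lower (11.8%), and without mondoa-mis replicate 1 there were 3, 1 higher and 2 lower (17.6%). Over all genes, 3119 of 15784, 3173 of 15815 and 3275 of 15801 passed in these fits, in that order. The 2 lowest, zwilch at -0.83 and zw10 at -0.59, encode partners in the complex that brings dynein to kinetochores, and the highest was BUB3 at 0.41. Of 17 cohesin and condensin genes, 6 were higher and 2 lower, and without any 1 of the mondoa-mis libraries 4 were higher and 2 lower. Outside the members, 6 of 16 were higher and 2 lower (50.0%). The cohesin loader genes nipbla (0.37) and nipblb (0.27, named after its value had been seen) rose, as did the condensin gene ncaph (0.30). In contrast stag2a, a cohesin subunit gene, fell by 0.34 and wapla, for the factor that releases cohesin, fell by 0.27.

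Of 29 mitotic spindle genes, 6 were higher and 7 lower, with birc5b of the chromosomal passenger complex highest at 0.48 and HAUS1 lowest. Without mondoa-mis replicate 2 these counts were 5 and 3, and without mondoa-mis replicate 3 they were 6 and 2. Of the 24 that are no members, 4 were higher and 6 lower (41.7%). Of 18 genes of the centrosome and centriole, 3 were higher and 4 lower (38.9%, against 32.3% of all genes tested). Without mondoa-mo replicate 2 these counts were 3 and 8. Outside the members, 1 of 10 was higher and 2 were lower (30.0%). The higher one was CEP152 (0.27, named after its value had been seen). Of 14 centromere genes, 2 were higher and 4 lower, and CENPF rose by 0.17 while cenpk fell by 0.57. Without any 1 of the mondoa-mis libraries 1 centromere gene was higher and 2 were lower. Of the 12 centromere genes that are no members, 1 was higher and 3 were lower (33.3%). Of 16 APC/C genes, 2 were higher and 4 lower, and outside the members these were CDC26 at 0.43 and CDC20, the activator of the complex, at -0.16.

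**Figure D4:**
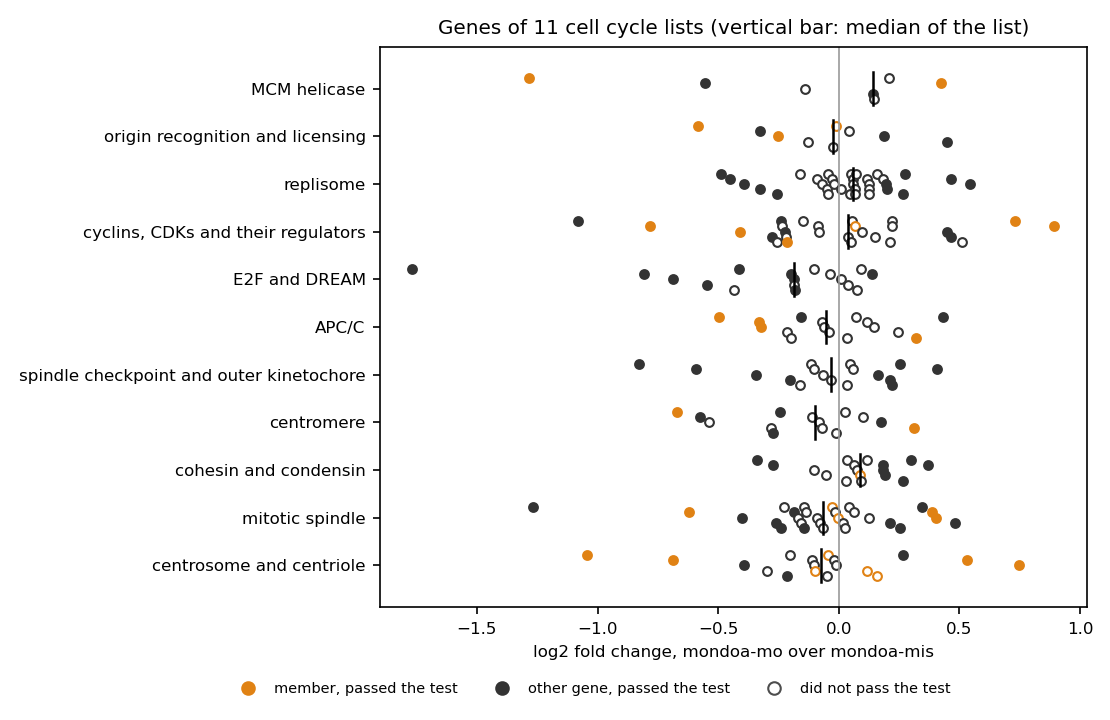
Log2 fold change of mondoa-mo over mondoa-mis (horizontal axis) for the tested genes of 11 lists, with members in orange, other genes in dark grey, open points for genes that did not pass the test, and a bar at each list's median. The medians lie between -0.18 for E2F and DREAM and 0.14 for the MCM helicase, and most lists hold genes far to both sides of 0.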

How the data were processed

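RNA from whole embryos, 3 mondoa-mis and 3 mondoa-mo samples, was made into mRNA libraries and sequenced in pairs. The labels do not say whether the samples came from separate clutches, so that p-values measure the spread between these samples only. The edgeR fit takes the same dispersion of a gene in both groups. Their biological coefficients of variation were unequal, 0.0193 in mondoa-mis and 0.111 in mondoa-mo, so that p-values measure the spread of neither group alone. Per the submitters' processing notes and the study's methods, reads were aligned with STAR 2.3.8 to GRCz11, and uniquely mapped pairs were counted on the exons of each gene. The deposited values used here are these raw counts and, as another column made by the authors, the gene length. Whether strand was used in counting is not given in the sources used here, so that overlapping or antisense genes are uncertain, as are near-identical copies. The fold changes and p-values in the study's tables were not used as values.

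Symbols came from the study's tables or from a gene name table that pairs 28986 of the 32054 identifiers. Capitals mark names in that table's spelling, but some of its names, such as orc2, are in lower case. Genes were filtered by edgeR's filterByExpr, scaled by TMM and tested by edgeR 4.0.16 (glmQLFit and glmQLFTest, R 4.3.3) with p-values adjusted over 15511 genes. DESeq2 1.42.0 was an alternative. The tests were tried on simulated data with equal dispersion in both groups, so that this trial does not check the unequal spread of the real groups. Members and lists were chosen with earlier results of these data known. All members are described, and of each list the called genes with the 2 highest and 2 lowest fold changes could be named. Error is the SD over libraries. Promoter and protein sequences were not analysed here.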

Additional observations from a re-analysis of the deposited data

How the results depend on the processing

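For the 52 members tested, 12 alternatives gave 624 log2 fold changes, of which 609 kept their direction and their side of the threshold. The call of orc3 was lost in 2 (above), and 3 were gained: rad21a and nek2 without mondoa-mo replicate 2 (adjusted p = 0.021 and 0.025, edgeR) and cep57l1 without mondoa-mo replicate 3 (0.045). In 10 an uncalled value near 0 changed sign. With all genes of at least 1 count these were cep89 (0.0018) and kif18a (0.0013), and with library size alone cep170aa (-0.028). When libraries were left out in turn, the range was -0.166 to 0.027 for cep135, -0.178 to 0.219 for cep89, -0.017 to 0.034 for cep170aa, -0.045 to 0.051 for kif18a and -0.030 to 0.012 for cdc6. The cause was not tested. Leaving out each library in turn gave 3119 to 5832 changed genes, 8 to 11 changed members of the identifier-sorted rows, 34 of the p-sorted rows throughout, and 56 to 102 same-named genes, a count added after seeing the data, as were those of the lists without single libraries.

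Scaling by library size alone shifted the median of all genes by -0.04 and gave 2137 higher and 2870 lower genes in place of 2621 and 2396, and 32 higher and 66 lower same-named genes. Same-numbered samples did not deviate together (correlations of 0.0382, 0.0261 and 0.0473). The control libraries varied so little that these correlations cannot settle whether the numbers pair the samples. A fit with the replicate block called 5281 genes, 9 members of the identifier-sorted rows, 34 of the p-sorted rows and 96 same-named genes. Members below about 1 CPM, such as cep89 with 12 to 26 counts in a library, are limited by depth.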

Other observations

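The members varied more between the mondoa-mo libraries than between the mondoa-mis libraries. The median SD of log2 CPM over 3 libraries was 0.0285 in mondoa-mis and 0.0865 in mondoa-mo, and it was larger in mondoa-mo for 45 of the 52 members tested (86.5%). Over all genes tested the medians were 0.0680 and 0.143, and 77.5% had the larger SD in mondoa-mo.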
